A study of Mus musculus with 10 samples.

Results

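The insulin-like growth factor (IGF) axis was followed through 10 genes in cultured adipose stem and precursor cells (ASPCs): the ligands Igf1 and Igf2, the receptors Igf1r and Igf2r, and the binding proteins Igfbp2, Igfbp3, Igfbp4, Igfbp5, Igfbp6 and Igfbp7. They were found in the table by gene symbol, with no threshold on measured values, and are 10 of the 25229 genes of the count table, and all 10 passed the filter on low counts that left 14251 genes for testing. The ASPCs came from perigonadal white adipose tissue (gWAT) of WT mice, were sorted as CD45-CD31-Pdgfra+ and were used at confluence without passaging. They were plated in a medium that held insulin, transferrin, selenium, basic fibroblast growth factor and serum. In the control group, 5 libraries were made from cells given the vehicle DMSO for 6 hr, and in the treated group 5 libraries were made from cells given 100 nM FICZ, a ligand of the aryl hydrocarbon receptor (AHR), for 6 hr. RNA was sequenced in bulk, and total counts per library ranged from 38328611 to 50210111. The strain, age and sex of the mice behind these cultures are not given in the sources used here. Libraries carry the numbers 1 to 5 in each group, and since nothing states that they came from separate cultures or animals, p-values measure the spread between these libraries, which may be technical.

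IGF1 and IGF2 are secreted growth factors that act through the receptor tyrosine kinase IGF1R, while IGF2R carries IGF2 and mannose 6-phosphate tagged enzymes to lysosomes and does not signal as a kinase. Most IGF in body fluids is held by binding proteins, which lengthen its life and either limit or help its access to the receptor. In adipose tissue, IGF1 and insulin drive the growth of precursor cells and their conversion to adipocytes through PI3K and AKT, and the liver is the main source of circulating IGF1.

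The sorted identity was compared with marker genes, given as CPM, the counts scaled to library size. All 11 adipose progenitor markers had at least 100 counts in every library, and Pdgfra, the sorted receptor, lay between 1181 and 1472 CPM. Summed over the 11 markers, of which Col3a1 was the most abundant, the level ran from 10332 CPM in FICZ replicate 3 to 15433 CPM in DMSO replicate 4. The sort's negative markers were low, with 7 to 83 counts of Ptprc (CD45) and 22 to 79 counts of Pecam1 (CD31).

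Markers of other cells were present to different degrees. The 7 endothelial markers summed to between 68.0 and 91.4 CPM, led by Tek at 52.9 to 76.7 CPM, with no other above 7.90 CPM. The 5 mesothelial markers summed to between 63.7 and 84.9 CPM, led by Wt1 at 57.4 to 81.6 CPM, with no other above 2.85 CPM. Each of these sums was thus mostly that of a single gene. The 10 leukocyte and macrophage markers, led by Csf1r, summed to between 23.6 and 48.8 CPM, and the 7 mature adipocyte markers, led by Fabp4, to between 79.8 and 179.1 CPM, with Lep at 0 counts in all 10 libraries, which for counting error alone allows up to 0.0603 to 0.0787 CPM. By the summed level of the leukocyte, adipocyte and mesothelial lists, DMSO replicate 5 was the highest library. Its mesothelial sum was carried by Wt1, at 81.6 CPM, while Krt19 was at its lowest there, at 0.328 CPM. The adipocyte sum of DMSO replicate 5 was carried by Pck1, a gluconeogenic enzyme gene also active in liver, at 126 CPM, while Fabp4 was at its lowest there, at 32.8 CPM.

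Liver transcripts stood against the sorted identity. All 20 hepatocyte markers had at least 100 counts in every library, with Alb, the gene of serum albumin, the most abundant. Their summed level in DMSO replicates 1 to 5 was 4967, 2007, 2263, 4822 and 11974 CPM, and in FICZ replicates 1 to 5 it was 2859, 2503, 2915, 2129 and 2669 CPM. DMSO replicates 1, 4 and 5 lay above all FICZ libraries, while DMSO replicate 2 lay below them all and DMSO replicate 3 within their range. The part of these transcripts in the results on the IGF genes was not tested, and in bulk RNA fewer cells of a type and less RNA per cell cannot be told apart.

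The treatment was visible in AHR target genes. Cyp1a1, a monooxygenase gene that AHR switches on, measured 35.2, 26.9, 42.9, 11.6 and 17.2 CPM in DMSO replicates 1 to 5 and 317, 287, 355, 144 and 172 CPM in FICZ replicates 1 to 5, a log2 fold change of 3.25 (SE 0.38, adjusted p = 0.0189, edgeR's quasi-likelihood test with Benjamini-Hochberg adjustment over all genes tested, n = 5 per group). Ahrr, the AHR repressor, rose by 1.66 on the log2 scale (SE 0.16, adjusted p = 0.00325, edgeR), and for both genes all 5 FICZ libraries lay above all 5 DMSO libraries. Ahr itself lay at 14.3 ± 1.95 CPM without FICZ and 10.5 ± 2.59 CPM with it (mean ± SD, n = 5), with a log2 fold change of -0.44 (SE 0.16, adjusted p = 0.999, edgeR; exact permutation p = 0.0476), and the FICZ library was lower in 5 of 5 pairs, by 0.06 to 0.82 on the log2 scale. Over all genes, 3 of 14251 passed an adjusted p of 0.05, or 0.0211%, and the third was Tiparp, named after its values were seen. Blocking on replicate number gave 8 genes, or 0.0561%, with Tiparp just outside the threshold (adjusted p = 0.0509, edgeR). The count of 3 became 1 without DMSO replicate 1 or 2 or FICZ replicate 1, 2 or 3. In each of these Cyp1a1 was among the calls lost (adjusted p = 0.0741, 0.0924, 0.0829, 0.0738 and 0.0692, edgeR), with log2 fold changes between 3.10 and 3.35, and it was also lost with Alb as a covariate (0.0656) and with no filter on low counts (0.0726).

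Against that background, 0 of the 10 IGF genes passed the adjusted threshold in edgeR, and 0 passed in DESeq2. At an unadjusted p of 0.05 or less, edgeR gave 1 of the 10, Igfbp5, where 4.82% of all genes did, and DESeq2 also gave 1, beside 943 of all 18940 genes it tested. Without DMSO replicate 2 edgeR gave 2, beside 928 of 14365 genes, and without FICZ replicate 5 it gave 0, beside 558 of 14348 genes. With the replicate block, edgeR gave 3 of the 10, Igfbp5, Igf1 and Igfbp4, where 4.65% of all genes did. DESeq2 with the block gave 2, Igfbp5 and Igf1, beside 707 of 18566 genes, and edgeR with the block and Alb as a covariate gave 1, Igfbp5, beside 912 of 14251 genes. None of the 10 had groups that did not overlap, which was so for 0.47% of all genes. The median log2 fold change of the 10 was -0.09, with 4 means higher and 6 lower in FICZ, beside a median of 0.01 over all genes tested.

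**Figure D1:**
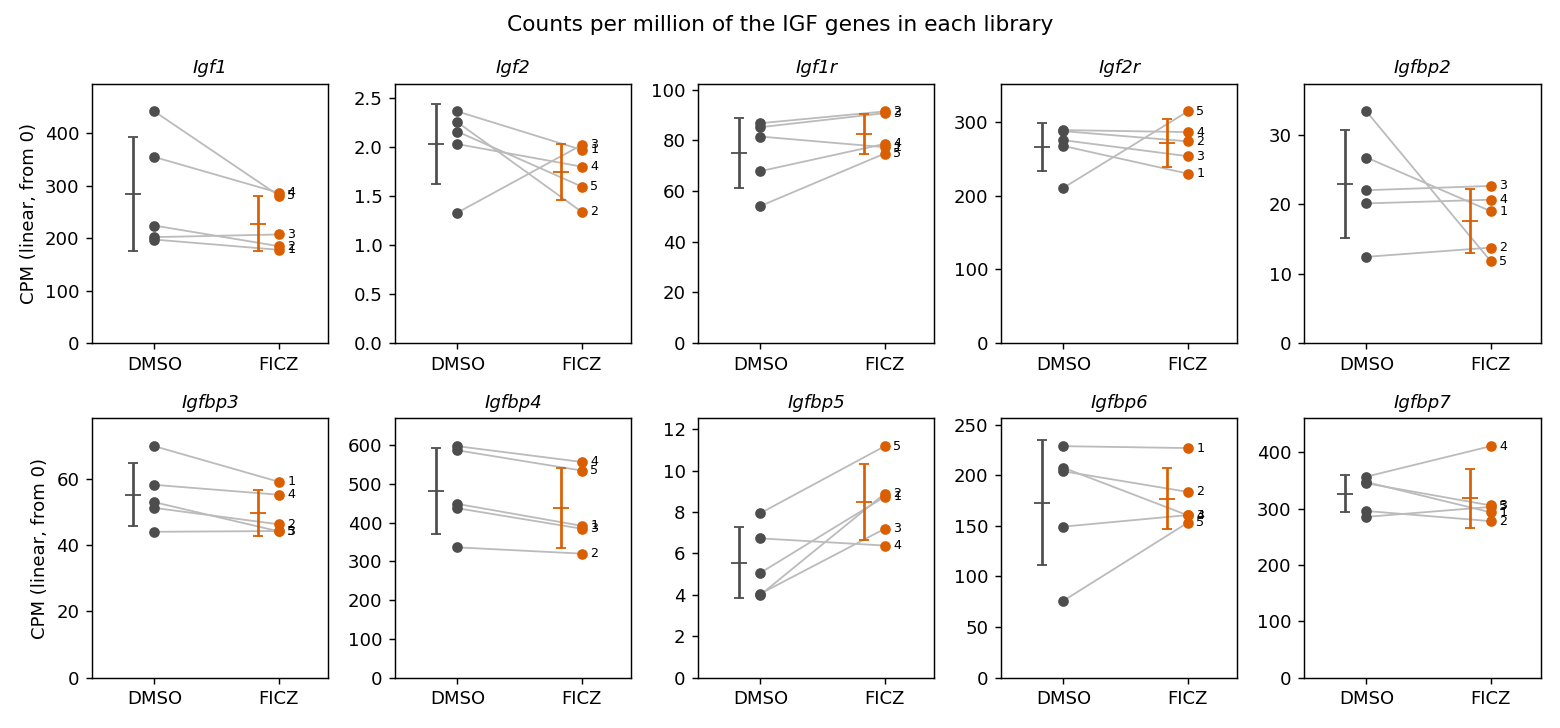
CPM (linear axes from 0) of each IGF gene in the 5 DMSO and 5 FICZ libraries, with lines joining libraries that carry the same number and bars at the side giving mean ± SD. Igfbp4 was lower in FICZ in 5 of 5 numbered pairs and Igfbp5 higher in 4 of 5, and in each panel the groups overlap.

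Igf1, the ligand through which growth hormone acts on many tissues, measured 197, 224, 202, 355 and 442 CPM in DMSO replicates 1 to 5 and 178, 185, 207, 287 and 281 CPM in FICZ replicates 1 to 5. In both groups the libraries numbered 4 and 5 were higher than those numbered 1 to 3, and the groups overlapped. FICZ against DMSO gave a log2 fold change of -0.32 (SE 0.24, adjusted p = 0.999, edgeR), and the permutation test on log2 CPM, exact and two-sided as for the genes that follow, gave p = 0.373. With the block the value was -0.27 with a smaller SE of 0.10 (unadjusted p = 0.0289, adjusted p = 0.929, edgeR), and Igf1 was lower in FICZ in 4 of 5 pairs, by up to 0.65 on the log2 scale in pair 5 and with a difference of 0.04 upward in pair 3. The log2 fold change was -0.10 without DMSO replicate 5 and -0.04 with log2 CPM of Alb as a covariate.

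Igf2, an imprinted gene expressed from the paternal copy and most active before birth, had few counts. There were 58 to 112 counts in the DMSO libraries and 63 to 84 in the FICZ libraries, or 2.02 ± 0.41 CPM and 1.74 ± 0.28 CPM (mean ± SD, n = 5). Its log2 fold change was -0.22 (SE 0.20, adjusted p = 0.999, edgeR; exact permutation p = 0.278), and the FICZ library was lower in 4 of 5 pairs. These counts are uncertain as a measure of Igf2 alone, because 62.8% of its exonic bases are shared with a read-through gene on the same strand, Gm49394. That gene has no row of its own in the table, although genes without any counts are kept there. H19, the non-coding RNA expressed from the maternal copy next to Igf2, lay at 4.13 ± 0.64 CPM without FICZ and 3.50 ± 1.55 CPM with it.

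The signalling receptor Igf1r measured 81.5, 86.8, 85.2, 67.8 and 54.1 CPM in DMSO replicates 1 to 5 and 77.3, 91.4, 90.7, 78.6 and 74.8 CPM in FICZ replicates 1 to 5. Numbers 4 and 5 were the lowest of the DMSO group, the reverse of Igf1, and 2 FICZ libraries lay above the DMSO range. The log2 fold change was 0.14 (SE 0.13, adjusted p = 0.999, edgeR; exact permutation p = 0.341), and the pair with number 5 had the widest difference, 0.47. Leaving out 1 library gave values from 0.04, without DMSO replicate 5, to 0.20, without DMSO replicate 2. With log2 CPM of Alb as a covariate the value was -0.003.

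Igf2r averaged 266 ± 32.3 CPM in the DMSO group and 272 ± 32.1 CPM in the FICZ group (n = 5), a log2 fold change of 0.03 (SE 0.11, adjusted p = 0.999, edgeR; exact permutation p = 0.794). DMSO replicate 5, at 211 CPM, was the lowest library and FICZ replicate 5, at 315 CPM, the highest, so that the other 4 pairs were lower in FICZ, and without DMSO replicate 5 the log2 fold change was -0.04. Airn, an antisense RNA whose gene overlaps that of Igf2r, shares 0 exonic bases with it and lay at 1.92 ± 0.53 CPM without FICZ and 1.79 ± 0.22 CPM with it.

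Of the binding proteins, Igfbp5, which also attaches to extracellular matrix, had the largest difference with FICZ. It measured 5.06, 4.00, 4.05, 6.73 and 7.94 CPM in DMSO replicates 1 to 5 and 8.74, 8.89, 7.19, 6.38 and 11.2 CPM in FICZ replicates 1 to 5, from 177 to 484 counts per library. Of the FICZ libraries, 3 lay above the whole DMSO range, and the pair with number 4 was the only pair of 5 that was not higher in FICZ. The log2 fold change was 0.61 (SE 0.22, unadjusted p = 0.0176, adjusted p = 0.999, edgeR; exact permutation p = 0.0397, where the smallest possible is 0.00794). Over 18 alternative settings it ran from 0.48 to 0.93 and the adjusted p from 0.111 to 1.0. The unadjusted p was 0.0540 without FICZ replicate 5. With log2 CPM of Alb as a covariate the value was 0.93 (SE 0.17, unadjusted p = 0.000125, adjusted p = 0.253, edgeR).

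Igfbp4, a binding protein that the protease PAPP-A cleaves to free IGF, measured 448, 336, 437, 597 and 586 CPM in DMSO replicates 1 to 5 and 392, 320, 384, 556 and 534 CPM in FICZ replicates 1 to 5. The spread between numbers was wide and shared by both groups, and within every pair the FICZ library was lower, by 0.07 to 0.20 on the log2 scale. In both edgeR fits its log2 fold change was -0.14, with an SE of 0.19 and an unadjusted p of 0.479 without the block and an SE of 0.06 and an unadjusted p of 0.0435 with it (adjusted p = 0.999 and 0.929). The exact permutation test, which does not use the pairs, gave p = 0.524. Leaving out 1 library gave values from -0.24, without DMSO replicate 2, to -0.04, without FICZ replicate 2.

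Igfbp6, whose product prefers IGF2, measured 229, 204, 207, 149 and 76.0 CPM in DMSO replicates 1 to 5 and 227, 184, 160, 161 and 153 CPM in FICZ replicates 1 to 5. The low library was DMSO replicate 5, and all FICZ libraries lay within the DMSO range. For Igfbp6 the log2 fold change was 0.03 (SE 0.25, adjusted p = 0.999, edgeR; exact permutation p = 0.833) and -0.16 without DMSO replicate 5.

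Igfbp2 measured 26.8, 12.4, 22.0, 20.1 and 33.4 CPM in DMSO replicates 1 to 5 and 19, 13.8, 22.7, 20.7 and 11.8 CPM in FICZ replicates 1 to 5. Replicate 5 was the highest DMSO library and the lowest FICZ library. For Igfbp2 the log2 fold change was -0.39 (SE 0.25, adjusted p = 0.999, edgeR; exact permutation p = 0.262), -0.21 without DMSO replicate 5 and -0.08 with log2 CPM of Alb as a covariate.

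Igfbp3, the main carrier of IGF in serum, averaged 55.3 ± 9.63 CPM in the DMSO group and 49.9 ± 6.92 CPM in the FICZ group (n = 5), a log2 fold change of -0.15 (SE 0.13, adjusted p = 0.999, edgeR), which was -0.07 without DMSO replicate 1 and -0.22 without DMSO replicate 3. Igfbp7, a related secreted protein that binds IGF weakly, had 326 ± 32.9 CPM and 318 ± 53.0 CPM, a log2 fold change of -0.04 (SE 0.12, adjusted p = 0.999, edgeR). That of Igfbp7 was -0.144 without FICZ replicate 4 and 0.011 without FICZ replicate 2. FICZ replicate 4, at 411 CPM, lay above the other FICZ libraries and above all DMSO libraries. Of the exonic bases of Igfbp7, 7.03% lie opposite exons of Polr2b, and whether the counting used strand is not given in the sources used here.

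Levels of the IGF genes were compared with each other after dividing CPM by exon length in kb. The most abundant gene of each marker list was named from CPM without this step. In DMSO the order of the mean levels, from the top, was Igfbp7, Igfbp6, Igfbp4, Igf1, Igf2r, Igfbp3, Igfbp2, Igf1r, Igfbp5 and Igf2. The highest, Igfbp7, had 270 ± 27.2 CPM per kb and the lowest, Igf2, 0.354 ± 0.0713 CPM per kb (mean ± SD, n = 5). The place of Igf2 and its ratio to other genes take all its exonic bases as counted, which is uncertain for those shared with Gm49394. Neighbours whose DMSO ranges overlapped were Igfbp6 and Igfbp4, Igf1 and Igf2r, and Igfbp3 and Igfbp2, and the other neighbours did not overlap. In FICZ the order was the same except that Igf2r stood above Igf1, with overlapping ranges. With the length of the longest transcript in place of all exons, the DMSO order was the same, and in FICZ Igf1 stood above Igf2r, again with overlapping ranges. With that length the ranges of Igf2r and Igfbp3 in DMSO and of Igfbp6 and Igfbp4 in FICZ overlapped as well.

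**Figure D2:**
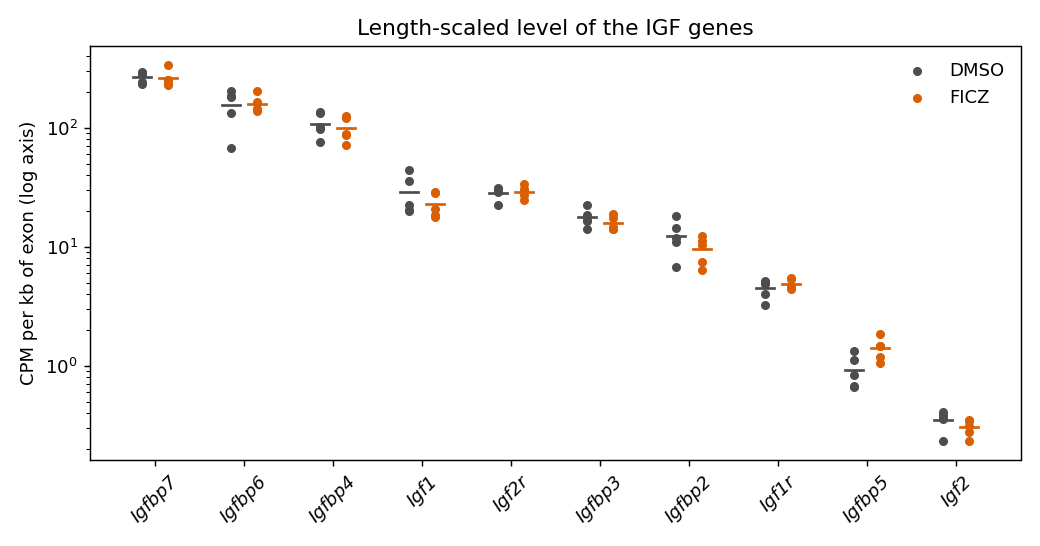
CPM per kb of exon (log axis) of the 10 IGF genes in each DMSO and FICZ library, ordered by the DMSO mean, which is drawn with the FICZ mean as a short line. Igfbp7, Igfbp6 and Igfbp4 lie highest, and Igf2, at 0.354 CPM per kb in DMSO, lies lowest.

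Per length, Igf1 was 82.7 ± 29.4 times the level of Igf2 in DMSO and 77.1 ± 21.2 times in FICZ, and Igf2r was 6.49 ± 0.828 times the level of Igf1r in DMSO and 6.00 ± 1.06 times in FICZ (mean ± SD, n = 5). Of the summed length-scaled level of the 6 binding proteins, Igfbp7 made up 47.8 ± 1.95% in DMSO and 47.9 ± 3.75% in FICZ. Igfbp6 made up 27.1 ± 8.46% and 29.3 ± 5.53%, and Igfbp4 19.6 ± 5.69% and 18.0 ± 3.25%. The share of Igfbp5 was 0.168 ± 0.0685% in DMSO and 0.262 ± 0.0696% in FICZ. Differences in shares between the groups were within 1 SD of the libraries for each of these genes except Igfbp5.

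For most members the replicate number went with more of the variation than the treatment did, with 4 coefficients for the number and 1 for the treatment. For Igfbp4, 94.6% of the sum of squares of log2 CPM lay between numbers and 4.82% between treatments, and for Igf1 the shares were 82.1% and 10.6%. Igfbp5 was the only member with a larger share between treatments (46.5%) than between numbers (33.9%), beside medians of 58.1% between numbers and 4.35% between treatments over all genes tested. The adipose progenitor list moved with the same numbers: its summed level was 12267 to 15433 CPM in the libraries numbered 4 and 5 and 10332 to 10832 CPM in those numbered 1 to 3. Within each group the adipocyte sum was also higher in numbers 4 and 5. In DMSO replicate 5, however, that sum was carried by Pck1, at 126 CPM, with Fabp4 at its lowest, at 32.8 CPM. The part of these lists in the results on Igf1 and Igfbp4 was not tested. In the edgeR test of replicate number, 1 of the 10 members passed the threshold, Igfbp4 (adjusted p = 0.0306), where 1.8% of all genes did, and Igf1 lay just outside it (adjusted p = 0.0593).

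The call on Igfbp4 was lost without any 1 of the numbers 1 to 4 and kept without number 5. Its adjusted p was 0.0696 without number 1, 0.166 without number 2, 0.0914 without number 3, 0.127 without number 4 and 0.0181 without number 5 (edgeR), and that of Igf1 was 0.0254 without number 5. Over all genes the number called was 0 without number 1, 2 or 4, 13 without number 3 and 433 without number 5, beside 257 with all numbers. Without DMSO replicate 5 alone, a setting added after the data were seen, 4 members passed, Igfbp4 (adjusted p = 0.00924), Igf1 (0.0151), Igfbp3 (0.0403) and Igfbp2 (0.0479), where 5.54% of all genes did.

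Among the 45 pairs of members, Pearson's r of log2 CPM over the 10 libraries was lowest for Igf1 with Igf1r (r = -0.87, permutation p = 0.0014, adjusted over the 45 pairs 0.0315) and for Igf1 with Igfbp6 (r = -0.87, permutation p = 0.00077, adjusted 0.0315). Spearman's rho was -0.61 (permutation p = 0.0659, adjusted 0.494) for the first and -0.83 (permutation p = 0.00444, adjusted 0.0999) for the second. Without the 2 libraries farthest from the median of Igf1, r was -0.49 for Igf1r and -0.72 for Igfbp6. The highest r was that of Igf1 with Igfbp4 (r = 0.83, permutation p = 0.00281, adjusted 0.0345; rho = 0.75, permutation p = 0.0164, adjusted 0.246), which was 0.74 without those 2 libraries. Igf1r and Igfbp4 had r = -0.78 (permutation p = 0.00307, adjusted 0.0345; rho = -0.88, permutation p = 0.0015, adjusted 0.0675), and -0.76 without the 2 libraries farthest from the median of Igf1r. Libraries of the same number may not be independent, so these p-values may be too small.

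The genes most like each member over the 10 libraries, by Pearson's r of log2 CPM, were Htra3 (0.988), Slc43a3 (0.983) and Zer1 (0.982) for Igf1, and Slc9a4 (0.921), Zfhx2 (0.862) and H3c3 (0.839) for Igf2. For Igf1r they were Nepro (0.981), Ercc6 (0.981) and Pkp4 (0.978), and for Igf2r Specc1l (0.967), Kidins220 (0.966) and Nktr (0.960). For Igfbp2 they were Slc25a22 (0.935), Cox16 (0.924) and Rpl39 (0.920), and for Igfbp3 0610012G03Rik (0.966), Suclg1 (0.934) and Rpp21 (0.896). These values describe the libraries, which share their numbers and their liver transcripts. For Igfbp4 the nearest were Strip2 (0.980), Adipoq (0.969) and Ralgds (0.955), and for Igfbp5 Slitrk5 (0.909), Lmo3 (0.898) and Prob1 (0.897). For Igfbp6 they were Kctd15 (0.994), Vps36 (0.992) and Bax (0.991), and for Igfbp7 Ell (0.922), Fgd1 (0.897) and Loxl1 (0.897).

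The relation of the IGF genes to Alb was asked next, since Alb differed widely between libraries. Alb measured 1921, 713, 756, 1740 and 4782 CPM in DMSO replicates 1 to 5 and 1085, 923, 1017, 682 and 942 CPM in FICZ replicates 1 to 5. DMSO replicate 5 stood apart at the top, and the FICZ libraries were close together. The log2 fold change of Alb with FICZ was -1.09 (SE 0.45, adjusted p = 0.999, edgeR), and -0.46 without DMSO replicate 5. With the replicate block it was -0.73.

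Igfals and Igfbp1, liver products that carry IGF in blood, served as a comparison. Igfals had 124, 63, 68, 130 and 374 counts in DMSO replicates 1 to 5 and 50, 67, 76, 81 and 97 in FICZ replicates 1 to 5. Its slope on log2 CPM of Alb, in a model with treatment, was 0.84 (SE 0.14, adjusted p = 0.00144, edgeR), and that of Igfbp1 was 1.00 (SE 0.20, adjusted p = 0.00564, edgeR). A slope of 1 means that a gene doubles when Alb doubles, and both genes were highest in DMSO replicate 5. Without that library the slopes were 0.70 (adjusted p = 0.417) and 0.80 (adjusted p = 0.900, edgeR).

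In the same fit 2 of the 10 IGF genes passed the threshold, where 12.9% of all genes did (1844 of 14250, 1259 with a positive and 585 with a negative slope). With the replicate block the balance turned, with 872 positive and 1146 negative slopes past the threshold. Igfbp5 had a slope of 0.38 (SE 0.10, adjusted p = 0.0313, edgeR) and Igf1r of -0.21 (SE 0.06, adjusted p = 0.0487, edgeR). Without DMSO replicate 5, where 396 genes or 2.77% passed, all with a positive slope, 0 of the 10 passed in edgeR and the unadjusted p was at or under 0.05 for 1, Igfbp5, beside 874 of 14299 genes. Igfbp5 then had a slope of 0.43 (adjusted p = 0.606) and Igf1r of -0.11 (adjusted p = 0.999). The number of genes called was 3313 without DMSO replicate 1 (1710 positive and 1603 negative), 1081 without DMSO replicate 2 and 862 without DMSO replicate 3.

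The calls on Igfbp5 and Igf1r changed with other libraries too, while the slopes were nearly the same. The adjusted p of Igfbp5 was 0.0938 without DMSO replicate 2 and 0.107 without DMSO replicate 3 (edgeR), with a slope of 0.37 in both. That of Igf1r was 0.111, 0.124 and 0.0696 without DMSO replicate 2, 3 or 4, and 0.0581 and 0.0597 without FICZ replicate 1 or 2 (edgeR), with slopes between -0.22 and -0.21. With the replicate block neither passed (slope 0.26, adjusted p = 0.171 for Igfbp5; slope -0.12, adjusted p = 0.232 for Igf1r), and without the treatment term Igfbp5 had a slope of 0.09 (adjusted p = 0.747, edgeR).

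The other members did not pass in this fit. Igf1 had a slope of 0.30 (SE 0.13, adjusted p = 0.145, edgeR), and 0.09 without DMSO replicate 5 (adjusted p = 0.999). The ratio of Igf1 counts to Alb counts was lowest in DMSO replicate 5 and highest in FICZ replicate 4, a 4.55-fold span, beside 2.53-fold for Igfals, 2.56-fold for Igfbp1, 4.34-fold for Igfbp2, 6.66-fold for Igfbp4 and 9.53-fold for Igf2r, with Alb itself between 682 and 4782 CPM. Igfbp6 had a slope of -0.39 (SE 0.15, adjusted p = 0.100), which passed with the replicate block (-0.41, adjusted p = 0.00421), with the other hepatocyte markers in place of Alb (-0.51, adjusted p = 0.0456) and without DMSO replicate 1 (-0.47, adjusted p = 0.00771), and was 0.00 without DMSO replicate 5 (adjusted p = 0.999, edgeR). Igfbp2 had a slope of 0.34 (SE 0.13, adjusted p = 0.112) and passed with the block (0.47, adjusted p = 0.0439) and without the treatment term (0.36, adjusted p = 0.0432, edgeR). With the other hepatocyte markers in place of Alb, 3 members passed, Igfbp5, Igf1r and Igfbp6, beside 2645 of 14250 genes.

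**Figure D3:**
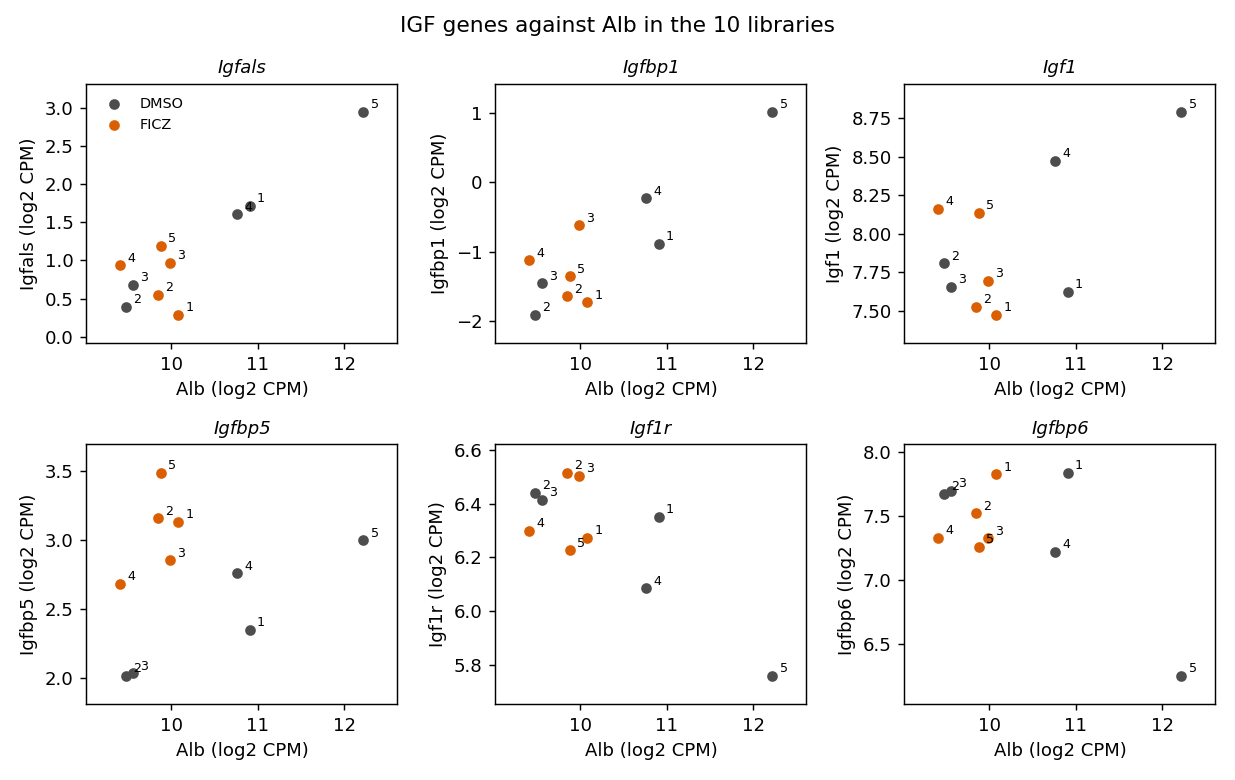
Log2 CPM of 6 genes against log2 CPM of Alb in the 10 libraries, with the replicate number beside each point and DMSO and FICZ in different colours. DMSO replicate 5, at 4782 CPM of Alb, lies alone at the right of each panel, with Igfals and Igfbp1 at their highest and Igf1r and Igfbp6 at their lowest values there.

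Correlations over the 10 libraries, computed for each of the 10 members without a treatment term, gave no adjusted p under 0.05. Igf1r had the largest r with Alb, -0.81 (permutation p = 0.0126, adjusted over the 10 genes 0.118), with rho = -0.53 (permutation p = 0.122, adjusted 0.356). Without DMSO replicates 1 and 5, the libraries farthest from the median of Alb, r was -0.59. Igfbp2 had r = 0.69 (permutation p = 0.0243, adjusted 0.118) and rho = 0.52 (permutation p = 0.135, adjusted 0.356), with r = 0.20 without those libraries. Igf1 had r = 0.61 (permutation p = 0.0574, adjusted 0.118) and rho = 0.10 (permutation p = 0.785, adjusted 0.785), with r = 0.37 without them. Igf2r had r = -0.64 (permutation p = 0.0474, adjusted 0.118) and rho = -0.50 (permutation p = 0.144, adjusted 0.356), with r = -0.13 without them. Igfbp6 had r = -0.69 (permutation p = 0.0592, adjusted 0.118) and rho = -0.21 (permutation p = 0.560, adjusted 0.699), with r = -0.36 without them. Leaving out those libraries narrows the range of Alb, which tends to weaken r in itself, so these values do not show which libraries r rests on. Leaving out 1 library at a time, the slope of Igfbp2 on Alb ran from 0.21, without DMSO replicate 2, to 0.47, without DMSO replicate 3, and was 0.30 without DMSO replicate 5. For the other genes named here the slope was nearer to zero without DMSO replicate 5. It went from 0.30 to 0.09 for Igf1 and from -0.15 to -0.06 for Igf2r. For Igfbp6 it went from -0.39 to 0.005 and for Igf1r from -0.21 to -0.11. After subtracting group means, Igfbp5 had r = 0.80 (permutation p = 0.00229, adjusted 0.0229) and Igf1r r = -0.78 (permutation p = 0.00964, adjusted 0.0482), beside r = 0.22 for Igfbp5 without that step. The permutations made no allowance for the subtracted means or for shared replicate numbers, so these p-values may be too small. In edgeR with the replicate block, neither gene's slope on Alb passed.

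The wider pathway was given by 48 further genes, of which 46 passed the filter on low counts. With FICZ 0 of the 46 passed the adjusted threshold in edgeR and 0 in DESeq2, and in each tool the unadjusted p was at or under 0.05 for 1 gene, Igfals in edgeR, beside 687 of 14251 genes in edgeR and 943 of 18940 in DESeq2. Of the 46, 27 means were higher and 19 lower, with a median log2 fold change of 0.02, beside 7666 higher and 6582 lower and a median of 0.01 over all genes. On Alb 5 of the 46 passed, 4 with a positive slope and 1 with a negative slope, beside 12.9% of all genes. Without DMSO replicate 1, 8 passed, beside 3313 of 14357 genes, and without DMSO replicate 3, 2 passed, beside 862 of 14363 genes. Without DMSO replicate 5, 0 passed, beside 396 of 14299 genes, and the unadjusted p was at or under 0.05 for 1. The positive slopes were those of Igfals, Igfbp1, Grb14 (slope 0.49, SE 0.11, adjusted p = 0.0144), an adaptor that restrains the insulin receptor, and Plagl1 (slope 0.35, SE 0.08, adjusted p = 0.0196), an imprinted transcription factor gene. The negative slope was that of Stc2 (-0.42, SE 0.13, adjusted p = 0.0481, edgeR), whose product inhibits the protease PAPP-A. Its adjusted p was 0.0927, 0.123 and 0.0698 without DMSO replicate 2, 3 or 4, and 0.0514 and 0.0507 without FICZ replicate 2 or 5 (edgeR). Without DMSO replicate 3 the adjusted p was 0.0749 for Grb14 and 0.0741 for Plagl1, and without DMSO replicate 5 it was 0.999 for Stc2, Grb14 and Plagl1 alike (edgeR). With the replicate block Plagl1 had a slope of 0.16 (adjusted p = 0.210), and Pik3r2, which encodes a regulatory subunit of PI3K, passed with a slope of -0.25 (adjusted p = 0.0285, edgeR).

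By role, the genes with the smallest unadjusted p with FICZ were all past an adjusted p of 0.99. Among the carriers, Igfals had a log2 fold change of -0.96 (SE 0.44) and Igfbp1 of -1.01 (SE 0.55), and the third carrier, Igfbpl1, had at most 2 counts in a library. Among the proteases of binding proteins and their inhibitors, Stc2 had 0.24 (SE 0.25) and Pappa2 0.22 (SE 0.23), while of the receptors and adaptors Tmem219, a receptor for IGFBP3, had -0.15 (SE 0.11) and Grb10 -0.07 (SE 0.07). None of these values was larger than 2.5 times its SE. Without DMSO replicate 5 they were -0.39 for Igfals, -0.28 for Igfbp1, 0.07 for Stc2 and -0.05 for Tmem219, and without FICZ replicate 4 the value of Pappa2 was 0.04.

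Of the 16 genes of PI3K and AKT signalling, 13 means were higher and 3 lower, with a median of 0.03. Those with the smallest p were Tsc1, 0.12 (SE 0.11), and Mtor, 0.10 (SE 0.10), which were 0.06 and 0.05 without DMSO replicate 5. Mtor was at 0.17 without FICZ replicate 1. In the growth hormone axis, which drives Igf1 in liver, Ghr had -0.13 (SE 0.10) and Cish -0.14 (SE 0.17), with Cish at -0.04 without FICZ replicate 2. Ghr was at -0.19 without FICZ replicate 3 (SE 0.09, unadjusted p = 0.0499, adjusted p = 0.9996, edgeR). In that setting 506 of 14381 genes had an unadjusted p of 0.05 or less. Of the RNA binding proteins and imprinted neighbours, Igf2bp1, with 9 to 62 counts per library, had 0.58 (SE 0.45) and H19 -0.24 (SE 0.28). H19 was at -0.06 without FICZ replicate 3. With Alb as a covariate and the block, H19 was at -0.63 (SE 0.16, unadjusted p = 0.00189, adjusted p = 0.350, edgeR). It was the only gene of the 46 at an unadjusted p of 0.05 or less in that fit, beside 912 of 14251 genes. With the block, Igf2bp1 alone of the 46 passed the unadjusted threshold (log2 fold change 0.54, SE 0.21, adjusted p = 0.929, edgeR), where 4.65% of all genes did, and it did not pass in DESeq2 with the block. Without FICZ replicate 1 and with no block its log2 fold change was 0.25. On Alb, further genes of smallest p by role were Stc1 (slope 0.52, adjusted p = 0.0910), Tmem219 (0.17, adjusted p = 0.0613), Foxo1 (0.21, adjusted p = 0.0703), Akt1 (-0.19, adjusted p = 0.0788), Jak2 (-0.17, adjusted p = 0.0864), Stat5b (-0.08, adjusted p = 0.258) and Igf2bp3 (0.14, adjusted p = 0.447, edgeR). Without DMSO replicate 1, Tmem219, Foxo1 and Akt1 passed (adjusted p = 0.0420, 0.0401 and 0.0138, edgeR).

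The members lie on 7 chromosomes of GRCm38, and 2 pairs of binding protein genes are close neighbours: Igfbp2 (chr1:72824503-72852474, plus strand) with Igfbp5 (chr1:72857932-72874884, minus strand), and Igfbp3 (chr11:7206086-7213923, minus strand) with Igfbp1 (chr11:7197782-7202546, plus strand). The log2 fold changes with FICZ were -0.39 for Igfbp2 and 0.61 for Igfbp5 in the first pair and -0.15 for Igfbp3 and -1.01 for Igfbp1 in the other, none past the threshold. Between Igfbp2 and Igfbp5, r of log2 CPM was -0.18 (permutation p = 0.617, adjusted over the 45 pairs 0.788; rho = -0.28, permutation p = 0.427, adjusted 0.862; r = -0.31 without the 2 libraries farthest from the median of Igfbp2).

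AHR binds DNA around the letters GCGTG, and the promoters of the members, 250 bases before to 50 after each RefSeq start on GRCm38.p6, were searched for them on both strands. All 10 members matched the RefSeq table, with 14 promoters, of which 7 (50%) held the letters, beside 32.4% of all 32851 promoters. Igf1r held 3 matches, Igfbp3 and Igf2r 2 each, and Igf1 and Igfbp7 1 each, while the 2 promoters of Igfbp2 held 2 and 1. The promoters of Igfbp4, Igfbp5 and Igfbp6 and all 4 of Igf2 held 0. The 250 bases before the start are shown for Igf1r, with the most matches, and for Igfbp5, the member with the largest difference with FICZ, with GCGTG or its reverse complement in capitals. They lie at chr7:67952007-67952256 (plus strand) and chr1:72874866-72875115 (minus strand), and a match is a description of the letters only.
Igf1r: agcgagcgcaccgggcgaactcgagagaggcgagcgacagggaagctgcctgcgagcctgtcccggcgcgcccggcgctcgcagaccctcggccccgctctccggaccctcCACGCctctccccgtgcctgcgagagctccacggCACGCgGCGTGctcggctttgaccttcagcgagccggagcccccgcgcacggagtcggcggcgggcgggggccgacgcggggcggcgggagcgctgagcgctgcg
Igfbp5: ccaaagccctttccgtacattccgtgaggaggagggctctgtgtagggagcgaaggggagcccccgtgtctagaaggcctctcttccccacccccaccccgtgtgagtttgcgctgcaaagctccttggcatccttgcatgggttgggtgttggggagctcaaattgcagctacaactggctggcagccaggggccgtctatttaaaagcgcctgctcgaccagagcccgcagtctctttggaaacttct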

How the data were processed

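The authors deposited unnormalized counts by gene symbol. The submitters' processing notes name STAR 2.7.7 and mm10, and the authors passed the counts to DESeq2. The counting tool is not given in the sources used here. Here edgeR 4.0.16 (R 4.3.3) with TMM factors, its expression filter and robust quasi-likelihood tests was used, with Benjamini-Hochberg adjustment over all genes tested and a threshold of 0.05. CPM use TMM-scaled library sizes, and log2 CPM a prior count of 2. The slope on Alb was fitted with treatment, and the replicate number as 4 coefficients with treatment. Exon lengths and overlaps came from GENCODE M21 on GRCm38, where 96.6% of symbols were found. Exact permutation tests used all arrangements of 5 against 5, and correlations 100000 resamples. The fits were tested on simulated data.

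The same numbers occur in both groups, and deviations from the group means correlated across genes within every pair (0.154 to 0.317, mean 0.252; -0.06 between different numbers), so the pairing comes from these values and not from a stated shared culture. Alternatives were the replicate block, DESeq2 1.42.0, other size factors, no filter, Alb as a covariate, another liver measure, other correlation scales and leaving out each library; leaving out replicate 5 of both groups, or DMSO replicate 5 alone from the test of numbers, was chosen after seeing the data. The members and lists were chosen with earlier results of these data known. Genes named by rule were the members, Ahr, Ahrr, Cyp1a1, Alb, Igfbp1, Igfals, from each pathway role those past the threshold and the 2 with the smallest unadjusted p, and the 3 genes most correlated with each member; gene neighbours and overlapping genes were named for their position. Tiparp, single markers, Pik3r2, and Insrr and Cdkn1c for their low counts were named outside the rule, after their values were seen.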

Additional observations from a re-analysis of the deposited data

Results flagged for a closer look

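In groups of 5 libraries, a library was set aside for a look when its gap to the nearest of the others, as a share of the group's range of log2 CPM, was above 0.71 (Dixon's criterion). Of 26 groups (the 10 members, Alb, Igfbp1 and Igfals in each treatment) 3 held such a library, and chance alone gives about 1 in 20 groups, or 1.3 here. They were Igf2 in DMSO replicate 3, the lowest of its group (share 0.734), Igf2r in DMSO replicate 5, the lowest (0.755), and Igfbp7 in FICZ replicate 4, the highest (0.756).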

How the results depend on the processing

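With FICZ, 0 of the 10 IGF genes and 0 of the wider pathway passed the adjusted threshold in any of 18 alternative settings, and 166 of 180 fold changes kept their direction. The 3 genes called over the whole table became 8 with the replicate block, 16 with DESeq2, 26 with DESeq2 and the block, 16 with Alb as a covariate and the block, 0 without replicate 5 of both groups, and 1 to 4 on leaving out each library. With Alb as a covariate the log2 fold change reversed for Igf1r (-0.003), Igf2r (-0.076), Igfbp4 (0.018) and Igfbp6 (-0.194), and with the block as well for Igf2r (-0.118) and Igfbp6 (-0.189), while Igfbp2 was at -0.084 without and -0.003 with the block. Without replicate 5 of both groups it reversed for Igf2r (-0.108) and Igfbp6 (-0.12). Leaving out each library gave -0.043 to 0.085 for Igf2r, -0.158 to 0.138 for Igfbp6 and -0.144 to 0.011 for Igfbp7. It gave -0.443 to -0.105 for Igf1, -0.334 to -0.134 for Igf2, -0.541 to -0.21 for Igfbp2 and 0.479 to 0.774 for Igfbp5.

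The number of genes with a slope on Alb ran from 396 to 3313 on leaving out each library. The slope reversed for Igfbp4 with the block (-0.001), and leaving out each library gave -0.007 to 0.245 for Igf2 and -0.466 to 0.005 for Igfbp6. For the replicate number, 257 genes became 0 to 792 on leaving out a number or DMSO replicate 5. Among the IGF genes and the wider pathway, the replicate block changed no other call than those given. The cause of these changes was not tested. Depth limits genes with few counts most: in their lowest libraries Insrr had 3, Igf2bp1 9, Igfbp1 11, Stc1 18, Igfals 50, Cdkn1c 56 and Igf2 58.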
